A study of Homo sapiens with 24 samples.

Results

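Semaphorins and ephrins are ligands that steer moving cells and growing axons, and plexins, neuropilins and Eph receptors are the receptors that read them. All genes were taken whose symbol in the deposited count tables names a semaphorin, a plexin, a neuropilin, an ephrin or an Eph receptor. Members were taken by this name rule and not by value, but the family was picked with earlier results of these data known. The rule gave 54 entries of the 57820 genes in the tables, for 53 symbols: 20 semaphorins, 9 plexins, 2 neuropilins, 8 ephrins and 14 Eph receptors. EFNA3 was listed under 2 identifiers, of which ENSG00000251246.1 had 0 counts in every library.

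Semaphorins signal mainly through plexins. The secreted class 3 semaphorins need a neuropilin as co-receptor for most of their plexin binding, whereas the membrane-bound classes bind plexins directly. Plexin signalling loosens adhesion and collapses the leading edge of a cell. Eph receptors are receptor tyrosine kinases whose ligands are tethered to neighbouring cells, the ephrin-A ligands by a lipid anchor and the ephrin-B ligands by a transmembrane segment. EphA receptors mostly bind ephrin-A and EphB receptors mostly bind ephrin-B, and both sides of the contact receive a signal. In bone and in tumours derived from it, these proteins are known for communication between osteoblasts and osteoclasts and for cell migration.

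RNA-seq was available for 24 libraries, 3 biological replicates in each of 8 groups, from human U2OS osteosarcoma cells. AID-DIvA cells are U2OS cells that carry the AsiSI restriction enzyme, which enters the nucleus only after 4-hydroxytamoxifen, an agent that the labels do not list for these libraries. WT and ID3-KO AID-DIvA cells were either untreated or given mocetinostat, an inhibitor of class I histone deacetylases, for 24 h and then kept without it for 24 h. WT and ID3-KO U2OS cells were either untreated or given mocetinostat for 24 h and taken before recovery, a stage read from the wording of the labels together with the methods. ID3 is an inhibitor of basic helix-loop-helix transcription factors. The stage and the cell line label coincide, so a difference between stages and a difference between the cell lines cannot be told apart. How the knockout lines were made, whether they were clones and the mocetinostat dose for these libraries are not given in the sources used here. Sample titles and the labelled treatment contradict each other in the 12 AID-DIvA libraries, which were grouped by their titles, as their library names also have it. The labelled treatment is the exact opposite there, and following it would turn the sign of every AID-DIvA treatment value. The library names of the 12 U2OS samples carry the word DivA, although their cell line is labelled U2OS, and the name U2OS is used here as labelled.

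Total counts per library ran from 37878751 to 76906266, and 38 of the 54 entries reached at least 1 TPM, the length-corrected share of transcripts, in every untreated library. One library stood apart from its group. The chi-square per gene between untreated WT U2OS replicate 1 and its 2 partners was 103 and 91.1, whereas it was 4.32 for those partners and did not exceed 27.3 in any pair of another group. Fold changes of the members named below that use it, and the numbers of members called, are therefore also given without it. Counts by family, overlaps between comparisons and partner genes use all libraries. ID3 itself was at 49.0 ± 1.91 CPM (counts scaled to library size) in untreated WT AID-DIvA cells and 33.2 ± 3.76 CPM in the KO cells (SD, n = 3), and at 64.8 ± 16.99 and 31.6 ± 1.62 CPM in untreated WT and KO U2OS cells. ID3 transcripts were thus lower in both KO lines, by 0.56 ± 0.07 and 1.03 ± 0.17 on the log2 scale (SE), and were not absent. These values are RNA and do not give the protein, which the study checked by Western blot. Of 12 osteoblast and mesenchymal markers, 6 to 9 reached 1 TPM in every group. Of 6 haematopoietic markers, 0 did. The summed osteoblast and mesenchymal markers were at 2154 to 2241 TPM in untreated and 1620 to 1701 TPM in treated WT U2OS cells. KO U2OS cells were at 1993 to 2109 and 1648 to 1664 TPM. In AID-DIvA cells the sum went from 1693 to 1722 TPM down to 1125 to 1329 TPM in WT cells. KO cells went from 1920 to 2111 TPM down to 1377 to 1499 TPM. The genes did not move together. In WT U2OS cells 2 rose and 4 fell of 10 tested (test below), and SPARC went from a mean of 1011 to 691 TPM. SPP1 went from 41.9 to 91.8 TPM there.

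Promoter windows of RefSeq (GRCh38.p14) were matched for 47 of the 53 symbols, giving 74 windows for the members, of 35116 windows of all genes. The 250 bases before the annotated start are given for 4 genes that carry the treatment results described below, EPHB3, SEMA3D, SEMA5A and EPHA8, and for EPHA2, which had the smallest adjusted p between genotypes in AID-DIvA cells. Capitals mark each GC box, GGGCGG read on either strand, the short motif bound by Sp1-type factors. The EPHB3 window lies at chr3:184561535-184561784 (plus strand), SEMA3D at chr7:85187057-85187306 (minus), SEMA5A at chr5:9546076-9546325 (minus), EPHA8 at chr1:22563239-22563488 (plus) and EPHA2 at chr1:16156070-16156319 (minus). The same letters were found in GRCh37, the build of the counts, at chr3:184279323-184279572, chr7:84816373-84816622, chr5:9546188-9546437, chr1:22889732-22889981 and chr1:16482565-16482814.
EPHB3: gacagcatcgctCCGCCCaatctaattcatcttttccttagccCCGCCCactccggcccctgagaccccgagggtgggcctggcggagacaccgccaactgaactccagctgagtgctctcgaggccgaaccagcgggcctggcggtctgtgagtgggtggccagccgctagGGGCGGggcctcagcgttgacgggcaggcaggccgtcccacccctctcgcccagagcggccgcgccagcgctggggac
SEMA3D: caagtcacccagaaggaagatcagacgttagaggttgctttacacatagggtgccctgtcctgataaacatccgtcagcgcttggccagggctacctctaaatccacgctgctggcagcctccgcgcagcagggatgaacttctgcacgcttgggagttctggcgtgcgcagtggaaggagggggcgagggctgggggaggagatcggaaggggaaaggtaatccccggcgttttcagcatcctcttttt
SEMA5A: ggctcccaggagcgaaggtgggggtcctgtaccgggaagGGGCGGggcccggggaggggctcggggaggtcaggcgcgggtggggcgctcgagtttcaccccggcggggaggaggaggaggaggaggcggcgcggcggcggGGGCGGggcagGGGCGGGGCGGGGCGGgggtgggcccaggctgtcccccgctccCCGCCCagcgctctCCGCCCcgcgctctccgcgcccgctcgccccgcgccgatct
EPHA8: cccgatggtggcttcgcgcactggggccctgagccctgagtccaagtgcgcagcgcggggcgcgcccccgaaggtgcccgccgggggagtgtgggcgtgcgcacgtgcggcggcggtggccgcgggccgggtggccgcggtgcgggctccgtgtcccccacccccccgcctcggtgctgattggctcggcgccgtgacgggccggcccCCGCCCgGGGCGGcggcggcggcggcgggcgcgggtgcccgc
EPHA2: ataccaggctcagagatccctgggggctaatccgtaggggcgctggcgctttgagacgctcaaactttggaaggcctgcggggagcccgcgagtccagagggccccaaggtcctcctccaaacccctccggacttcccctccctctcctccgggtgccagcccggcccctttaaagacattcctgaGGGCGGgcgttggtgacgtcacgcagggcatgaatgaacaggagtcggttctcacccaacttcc
SEMA5A, the member that rose most after recovery, held 7 GC boxes, some of them overlapping, in a window of 82.0% G and C. SEMA3D, which fell furthest after recovery, held 0 in a window of 57.6% G and C. EPHB3 held 3, EPHA8 held 2 and EPHA2 held 1. Over all members, 73.0% of the windows held a GC box, against 42.6% of all windows, and the members' windows were also richer in G and C, with a median of 65.8% against 58.0%. E boxes, CANNTG, the motif of the helix-loop-helix factors that ID3 restrains, were in 52.7% of the members' windows and in 61.8% of all windows. The narrower CAGGTG, each copy of which is also a CANNTG, was in 16.2% and 17.5%. TATAAA was in 4.05% and 10.7%. These matches describe letters in a short window and were not tested against the expression values.

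Levels can be compared between genes only per transcript length, so the order of the members is given in TPM. PLXNB2, a receptor for SEMA4C, was the most abundant member in untreated cells, with a median of 198 TPM and a range of 160 to 239 TPM over the 12 untreated libraries. It did not overlap with SEMA6B, next in order, at 60.04 to 135 TPM. SEMA6B, EPHA2 at 56.0 to 116 TPM and PLXNA1 at 47.6 to 79.6 TPM overlapped with one another. They were followed by the EphB receptors EPHB4, with a median of 55.9 TPM, and EPHB2, with 47.4 TPM, and by SEMA4C with 44.2 TPM. EFNA4 and EFNA2 led the ephrins, with medians of 35.1 and 32.4 TPM. At the other end, 10 members were below 1 TPM in every untreated library, among them SEMA5A, PLXNA4, SEMA3D and the never detected second EFNA3 entry. EFNB2, a ligand best known from arteries, had a median of 0.0954 TPM, and EPHA7 one of 0.0366 TPM. EFNB2, SEMA5B, SEMA4A and EPHA7 rested on few reads, and EPHA7 was tested in none of the treatment comparisons.

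**Figure D1:**
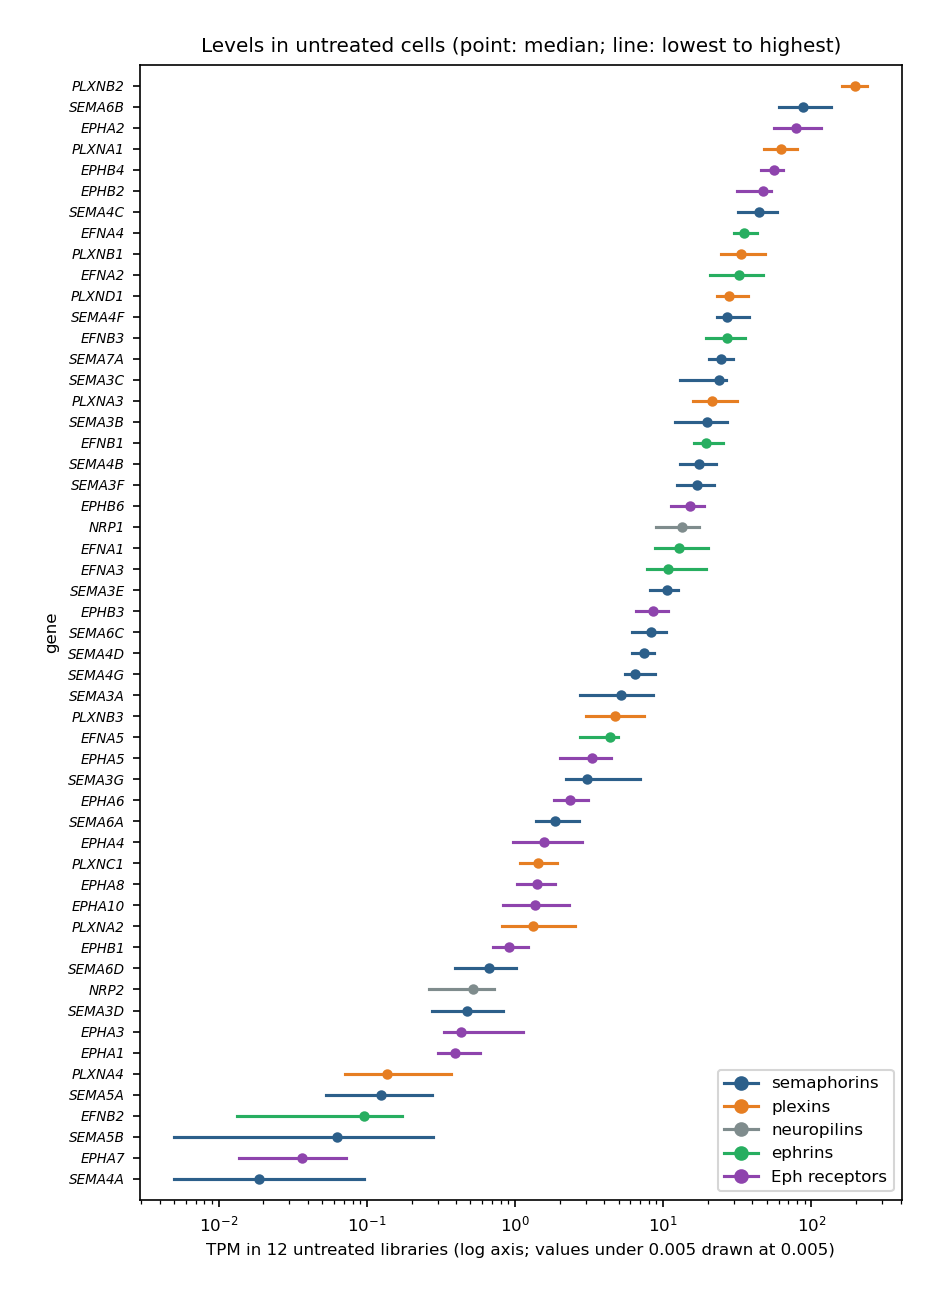
Level of each member in the 12 untreated libraries, in TPM on a log axis. Points are medians, lines run from the lowest to the highest library and colours mark the families. PLXNB2 stands alone at the top at 160 to 239 TPM, and 10 entries are below 1 TPM in every library (the second EFNA3 entry, at 0 throughout, is not drawn).

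The first question was how the family responded to mocetinostat in each genotype. Differences were tested on the counts across all genes with edgeR's quasi-likelihood test and Benjamini-Hochberg adjustment, and a gene was called at an adjusted p below 0.05. Before recovery, 29 of 50 tested members rose and 12 fell in KO U2OS cells, where 35.8% of all 21176 tested genes rose and 34% fell (69.9% in either direction). In WT U2OS cells 29 of 51 members rose and 8 fell, against 26% and 22.9% of 21797 genes (48.9% in either direction). The median member was 0.50 higher on the log2 scale in KO cells and 0.49 higher in WT cells, while the median of all tested genes was 0.00 and 0.01. After recovery the balance was the other way. Among KO AID-DIvA cells' 50 tested members, 10 rose and 15 fell, against 20.2% and 19.9% of 20362 genes (40.1% in either direction). In WT AID-DIvA cells 10 of 49 rose and 23 fell, against 23.9% and 23% of 20289 genes (46.9% in either direction). The medians of the members were -0.06 in KO and -0.15 in WT cells, those of all genes -0.02 and 0.00. Counting only called changes beyond 1 on the log2 scale, 22 members remained in KO and 16 in WT U2OS cells, where 20.3% and 18.6% of all genes did, and 7 in KO and 9 in WT AID-DIvA cells, against 7.46% and 7.38%.

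The 2 genotypes, which share no libraries, can be set side by side. Before recovery 27 members rose in both, of 29 risers in each genotype, and 8 fell in both, of 12 in KO and 8 in WT cells. Over all genes, 69.0% of the KO risers and 63.4% of the KO fallers were called the same way in WT cells. After recovery 8 members rose in both, of 10 risers in each genotype, and 13 fell in both, of 15 in KO and 23 in WT cells. These are 80% of the KO risers and 86.7% of the KO fallers, against 80.0% and 79.3% over all genes. Without untreated WT U2OS replicate 1, 45 members were called in WT U2OS cells instead of 37, and 66.4% of all genes instead of 48.9%. Because each library is the RNA of a whole culture, fewer cells of a kind and less RNA per cell cannot be told apart.

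**Figure D2:**
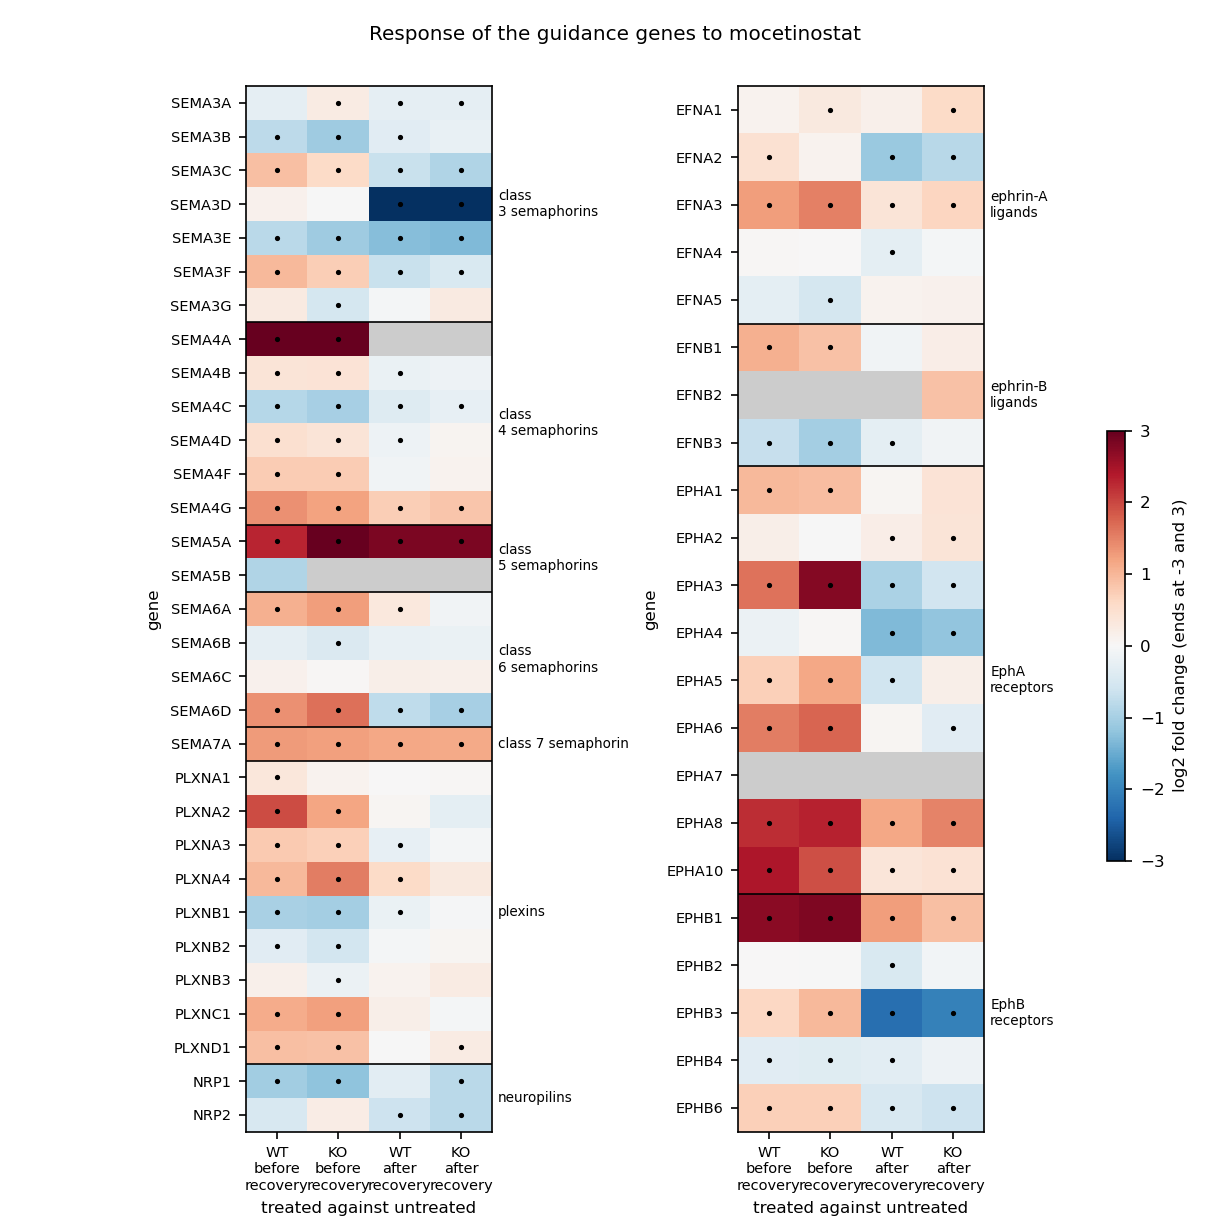
Log2 fold change of treated against untreated cells for the 53 symbols, by family, in WT and ID3-KO cells before recovery (U2OS) and after recovery (AID-DIvA). Red is higher and blue lower in treated cells, a dot marks an adjusted p below 0.05 and grey a gene not tested. Most dots before recovery are on red and most after it on blue, with SEMA5A, SEMA7A, SEMA4G, EPHA8 and EPHB1 red throughout.

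Among the ligands, the semaphorins were counted by class. Before recovery KO cells had 3 risers and 3 fallers among the 7 secreted class 3 semaphorins and WT cells had 2 of each, whereas after recovery 5 fell in KO and 6 in WT cells, with log2 changes of the 7 from -3.14 to 0.27 in KO and from -3.06 to -0.07 in WT cells. Over all genes, 35.8% rose and 34% fell in KO and 26% and 22.9% in WT cells before recovery. The shares that fell after recovery were 71.4% of this class in KO and 85.7% in WT cells, against 19.9% and 23% of all genes. SEMA3E, a secreted ligand that binds PLXND1 without a neuropilin, fell in all 4 comparisons. In untreated WT U2OS cells it was at 18.8, 21.1 and 23.0 CPM and in treated ones at 12.1, 12.2 and 11.8 CPM, a change of -0.80 ± 0.09 (log2, SE; adjusted p = 0.000309; -0.88 without untreated replicate 1). In KO U2OS cells it went from 24.8, 26.3 and 25.6 CPM to 10.7, 13.4 and 12.4 CPM, or by -1.07 ± 0.07 (adjusted p = 3.24e-12). The treated and untreated libraries did not overlap in either genotype. After recovery it was still low in WT AID-DIvA cells, with 8.54, 8.58 and 8.83 CPM against 20.7, 20.3 and 22.3 CPM untreated (-1.28 ± 0.06, adjusted p = 4.69e-09). KO AID-DIvA cells gave 7.80, 9.41 and 8.12 CPM against 22.1, 21.5 and 20.05 CPM (-1.32 ± 0.09, adjusted p = 4e-06). All 6 recovered libraries were thus below all 6 untreated ones.

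SEMA3D, another secreted semaphorin, was near 1 CPM and behaved differently at the 2 stages. Before recovery it was at 1.498, 1.22 and 1.39 CPM in treated and 0.761, 1.51 and 1.55 CPM in untreated WT U2OS cells, which overlapped (0.12 ± 0.27, adjusted p = 0.752; -0.15 without untreated replicate 1, also not called). After recovery 49, 66 and 79 counts in untreated WT AID-DIvA libraries stood against 12, 6 and 2 counts in treated ones, a change of -3.06 ± 0.33 (adjusted p = 6.47e-06). KO libraries had 58, 65 and 56 counts untreated and 3, 7 and 6 counts recovered (-3.14 ± 0.25, adjusted p = 1.14e-05). Recovered libraries of both genotypes were far below their controls, and the size of the change rests on few reads. SEMA3F, which acts through NRP2, rose before recovery, by 0.98 ± 0.09 in WT (1.05 without untreated replicate 1) and 0.75 ± 0.06 in KO cells, and fell after it, by 0.68 in WT and 0.46 in KO cells on the log2 scale. In CPM it went from 26.3, 23.3 and 21.6 to 46.8, 46.1 and 46.9 in WT U2OS cells and from 19.1, 18.5 and 17.8 to 10.002, 11.95 and 12.6 in WT AID-DIvA cells, with no overlap at either stage. SEMA3C, a promoter of migration in several tumours, did the same (0.90 and 0.58 before, -0.67 and -0.90 after recovery, WT first, all called; 0.69 in place of 0.90 without untreated replicate 1). SEMA3B, described as a tumour suppressor, fell before recovery in both genotypes. In KO U2OS cells it went from 40.8, 41.2 and 40.8 CPM to 20.6, 18.1 and 20.2 CPM, without overlap (-1.06 ± 0.06, adjusted p = 1.07e-13).

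Among the semaphorins, those that rose in all 4 comparisons were membrane-bound, SEMA4G, SEMA5A and SEMA7A. The membrane-bound classes were mixed, however. After recovery 1 rose and 3 fell of 5 tested class 4 semaphorins in WT, and 1 rose and 1 fell of 5 in KO cells. SEMA5A, a transmembrane protein with thrombospondin repeats that binds PLXNB3, was at low levels in untreated cells. In WT U2OS cells it went from 0.599, 0.584 and 0.784 CPM to 2.92, 3.41 and 3.12 CPM (2.28 ± 0.17, adjusted p = 3.18e-05; 2.22 without untreated replicate 1). KO U2OS cells went from 0.302, 0.314 and 0.332 CPM to 2.83, 2.54 and 2.67 CPM (3.08 ± 0.19, adjusted p = 1.1e-12). Every treated library was above every untreated one, and the KO controls lay below the WT controls. After recovery WT AID-DIvA cells were at 8.49, 6.13 and 5.42 CPM against 0.849, 1.002 and 0.994 CPM (2.82 ± 0.18, adjusted p = 6.7e-08). KO AID-DIvA cells were at 1.93, 2.41 and 2.71 CPM against 0.195, 0.416 and 0.364 CPM (2.84 ± 0.23, adjusted p = 1.29e-05). The log2 changes were alike in the 2 genotypes while the levels were not: recovered KO libraries stayed below all recovered WT libraries. The promoter window of SEMA5A above carries 7 GC boxes, and a link of these to its response was not tested.

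SEMA7A, a lipid-anchored semaphorin that binds PLXNC1 and integrins, rose by a similar amount throughout. In WT AID-DIvA cells it went from 27.8, 30.2 and 32.6 CPM to 74.7, 63.1 and 64.2 CPM (1.16 ± 0.07, adjusted p = 5.21e-08). KO AID-DIvA cells went from 34.2, 33.2 and 37.0 CPM to 83.5, 72.5 and 74.7 CPM (1.14 ± 0.08, adjusted p = 3.64e-06). Before recovery the changes were 1.28 ± 0.09 in WT (1.35 without untreated replicate 1) and 1.22 ± 0.08 in KO U2OS cells, so that at both stages treated cells held more than all of their controls. SEMA4G rose by 1.38 (1.31 without that replicate) and 1.20 before and 0.74 and 0.83 after recovery (WT first). SEMA4C, a ligand of PLXNB2, fell in all 4. It was at 111, 108 and 106 CPM in untreated and 61.5, 59.7 and 58.8 CPM in treated WT U2OS cells (-0.85 ± 0.07, adjusted p = 3.99e-05; -0.84 without untreated replicate 1). The change in KO U2OS cells was -1.01 ± 0.05, and after recovery it was -0.38 ± 0.05 in WT and -0.24 ± 0.07 in KO cells (adjusted p = 3.47e-05 and 0.0277). SEMA6D, which signals through plexin-A receptors, rose before recovery (1.38 in WT, 1.20 without untreated replicate 1, and 1.65 in KO cells) and fell after it. In KO AID-DIvA cells it was at 1.95, 1.81 and 1.58 CPM untreated and 0.502, 1.25 and 0.756 CPM recovered, without overlap (-0.998 ± 0.25, adjusted p = 0.00987). SEMA4A was called before recovery (3.01 ± 0.82 in WT, 2.57 without untreated replicate 1, and 3.62 ± 0.47 in KO cells), from 1, 0 and 10 counts to 32, 24 and 39 counts in WT libraries and from 2 in each library to 34, 26 and 23 counts in KO libraries. It entered the test only through its treated libraries.

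Of the 9 plexins, the receptors of the semaphorins, 6 rose and 2 fell before recovery in WT U2OS cells and 5 rose and 3 fell in KO U2OS cells. After recovery few were called: 1 rose and 2 fell in WT, and 1 rose in KO AID-DIvA cells. Over all genes, 26% rose and 22.9% fell in WT and 35.8% and 34% in KO U2OS cells. In AID-DIvA cells 33.3% of the plexins were called in WT and 11.1% in KO cells, against 46.9% and 40.1% of all genes. The plexins A2, A3, A4, C1 and D1 rose before recovery in both genotypes, with PLXNA2 at 1.95 ± 0.19 in WT (1.73 without untreated replicate 1) and 1.19 ± 0.07 in KO cells and PLXND1, the receptor of SEMA3E, at 0.90 ± 0.09 (0.82 without it) and 0.87 ± 0.05. PLXNB1 and PLXNB2 fell at that stage. PLXNB1, the receptor of SEMA4D, was at 121, 142 and 129 CPM in untreated and 68.7, 67.6 and 63.6 CPM in treated WT U2OS cells (-0.97 ± 0.08, adjusted p = 6.7e-05; -1.03 without untreated replicate 1). In KO U2OS cells it went from 124, 120 and 115 CPM to 56.9, 57.9 and 63.2 CPM (-1.01 ± 0.05, adjusted p = 2.09e-14). No treated library reached an untreated one. After recovery the values were -0.20 ± 0.07 in WT cells, where the groups overlapped (adjusted p = 0.0379), and -0.02 ± 0.08 in KO cells (adjusted p = 0.826). PLXNB2, the most abundant member, fell by 0.34 in WT (0.37 without untreated replicate 1) and 0.54 in KO U2OS cells on the log2 scale and gave -0.06 and 0.07 after recovery (adjusted p = 0.472 and 0.526).

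Both neuropilins, the co-receptors of class 3 semaphorins and of VEGF, gave lower values in most comparisons. NRP1 was among the strongest falls before recovery. In WT U2OS cells it went from 35.6, 51.1 and 50.6 CPM to 22.6, 20.2 and 23.5 CPM (-1.05 ± 0.15, adjusted p = 0.000777; -1.20 without untreated replicate 1, which is the lowest of the controls). KO U2OS cells went from 61.6, 60.9 and 63.8 CPM to 25.1, 26.6 and 28.3 CPM (-1.22 ± 0.05, adjusted p = 2.13e-15). Treated and untreated libraries were separate in both genotypes. After recovery KO AID-DIvA cells were at 21.9, 25.9 and 22.5 CPM against 45.3, 40.3 and 37.0 CPM (-0.80 ± 0.10, adjusted p = 0.000159). The WT recovered libraries were spread, at 48.5, 32.1 and 29.6 CPM against 49.7, 44.0 and 44.7 CPM, and overlapped with their controls (-0.32 ± 0.20, adjusted p = 0.254). The difference between the genotypes was -0.47 ± 0.22 and was not called (adjusted p = 0.419). NRP2 was low, at 2.25, 2.32 and 2.28 CPM in untreated WT AID-DIvA cells, and fell after recovery in both genotypes (-0.62 ± 0.13 in WT and -0.81 ± 0.16 in KO cells).

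**Figure D3:**
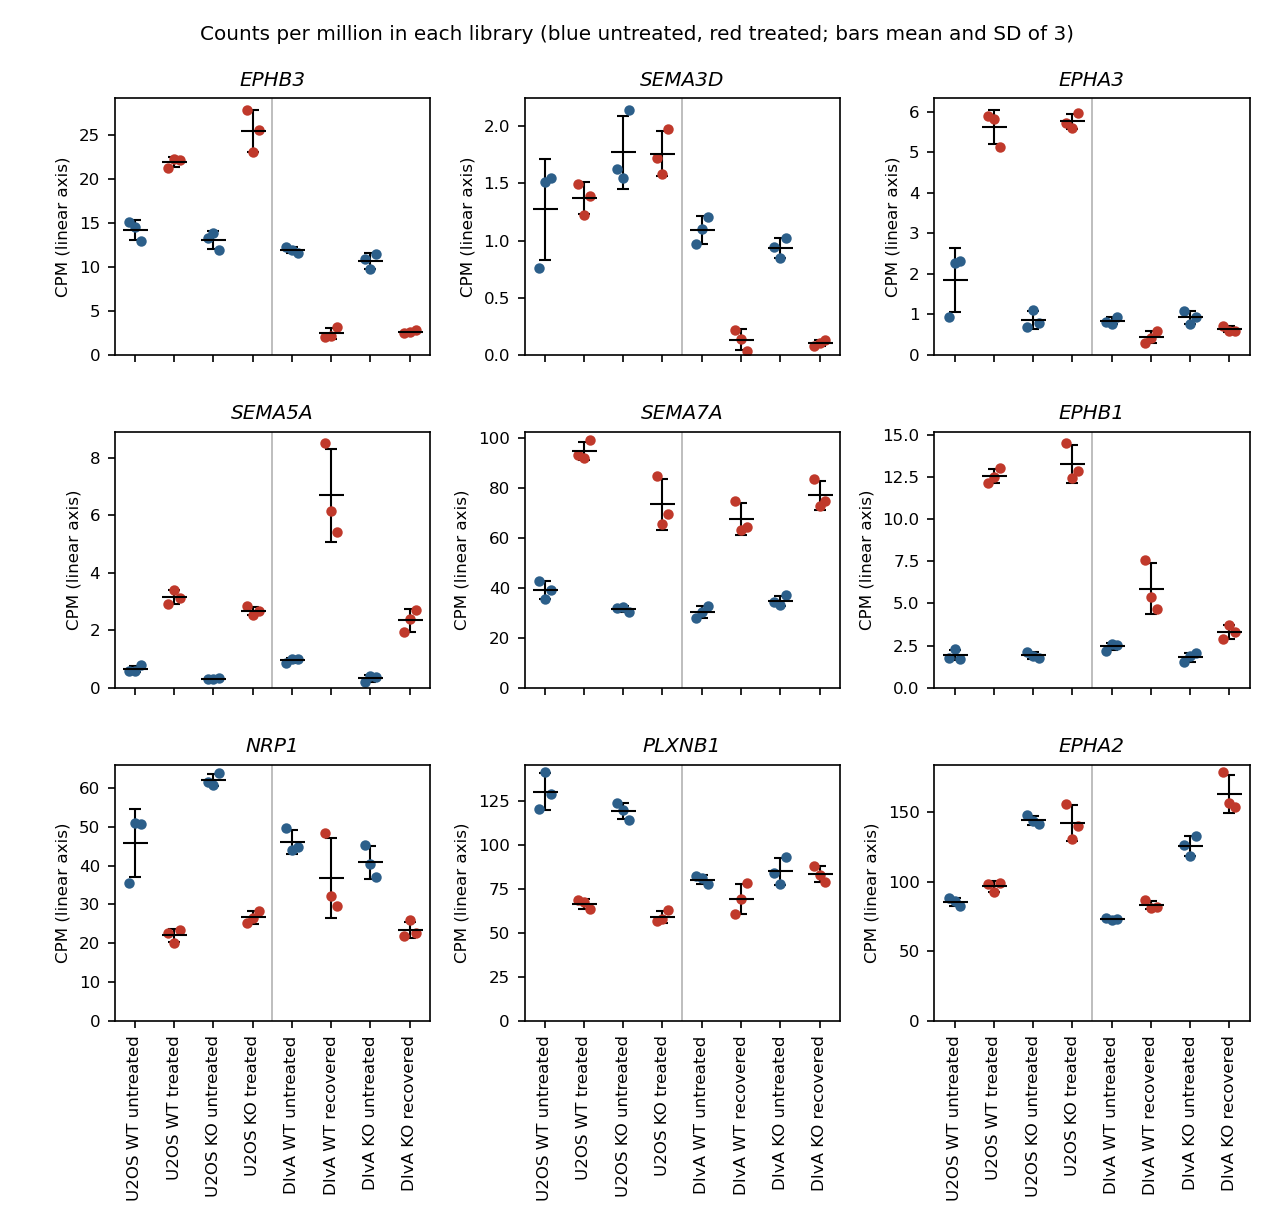
CPM of 9 members in each of the 24 libraries, on linear axes that start at 0 and differ between panels. Points are libraries (blue untreated, red treated), and bars give the mean and SD of the 3 replicates. U2OS libraries, before recovery, are left and AID-DIvA libraries, after recovery, right of the grey line. EPHB3 and EPHA3 are above their controls on the left and below them on the right, SEMA5A, SEMA7A and EPHB1 are above on both sides, and EPHA2 is higher in KO than in WT cells in every pair of groups.

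The ephrins are the ligands of the Eph receptors. Of 7 tested ephrins, 3 rose and 1 fell in WT and 3 rose and 2 fell in KO U2OS cells. After recovery 1 of 7 rose and 3 fell in WT, and 2 of 8 rose and 1 fell in KO AID-DIvA cells. Over all genes, 26% rose and 22.9% fell in WT and 35.8% and 34% in KO U2OS cells. In KO U2OS cells the 71.4% of ephrins called was near the 69.9% of all genes. The all-gene shares after recovery were 23.9% up and 23% down in WT and 20.2% and 19.9% in KO cells. EFNA3, an ephrin-A ligand, rose in all 4 comparisons, by 1.26 ± 0.18 (1.51 without untreated replicate 1) and 1.51 ± 0.07 before and 0.38 ± 0.11 and 0.64 ± 0.10 after recovery (WT first). Its gene overlaps that of EFNA4 on the same strand, so the counts may not separate the pair fully; EFNA4 gave 0.05 (0.14 without that replicate) and 0.00 before recovery. EFNA2 fell after recovery. WT AID-DIvA cells were at 14.0, 14.9 and 13.5 CPM untreated and at 5.21, 7.28 and 6.91 CPM recovered, without overlap (-1.12 ± 0.10, adjusted p = 1.41e-06), and in KO cells the change was -0.83 ± 0.08. EFNB1 rose before recovery (1.08 ± 0.10 in WT, 1.17 without untreated replicate 1, and 0.89 ± 0.07 in KO cells) and was not called after it. EFNB3, another transmembrane ephrin, fell before recovery. In KO U2OS cells it went from 29.7, 29.3 and 28.0 CPM to 14.5, 13.2 and 15.02 CPM, with all treated libraries below the controls (-1.02 ± 0.06, adjusted p = 6.59e-13).

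The Eph receptors rose most often before recovery: 9 of 13 tested rose and 1 fell in each genotype, with a median of 0.72 in WT and 0.97 in KO cells on the log2 scale. After recovery 4 rose in each genotype, while 7 fell in WT and 5 in KO cells. Over all genes, 26% rose and 22.9% fell in WT and 35.8% and 34% in KO U2OS cells. The all-gene shares after recovery were 23.9% up and 23% down in WT and 20.2% and 19.9% in KO cells. EPHB1, an EphB receptor of the nervous system, rose before recovery in WT U2OS cells from 1.78, 2.28 and 1.72 CPM to 12.2, 12.5 and 13.0 CPM (2.70 ± 0.13, adjusted p = 4.41e-06; 2.62 without untreated replicate 1). KO U2OS cells went from 2.13, 1.87 and 1.75 CPM to 14.6, 12.4 and 12.9 CPM (2.80 ± 0.10, adjusted p = 8.18e-17). Treated libraries held several times the level of any control. The rise was smaller but present after recovery. WT AID-DIvA cells were at 7.58, 5.37 and 4.67 CPM against 2.21, 2.59 and 2.55 CPM (1.26 ± 0.17, adjusted p = 5.99e-05). KO AID-DIvA cells were at 2.91, 3.75 and 3.32 CPM against 1.51, 1.87 and 2.04 CPM (0.90 ± 0.14, adjusted p = 0.000882). Neither pair of groups overlapped.

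EPHA8, an EphA receptor also known from the nervous system, followed the same course. It went from 3.03, 2.04 and 2.45 CPM to 12.4, 11.5 and 10.9 CPM in WT U2OS cells (2.22 ± 0.15, adjusted p = 2.11e-05; 2.38 without untreated replicate 1). KO U2OS cells went from 3.08, 2.37 and 2.64 CPM to 14.7, 12.6 and 12.9 CPM (2.32 ± 0.10, adjusted p = 1.6e-15). No treated library came near its controls. After recovery WT AID-DIvA cells were at 4.01, 4.38 and 4.42 CPM against 1.76, 1.75 and 2.20 CPM (1.16 ± 0.12, adjusted p = 3.36e-06). KO AID-DIvA cells were at 6.58, 5.41 and 5.88 CPM against 2.04, 1.93 and 2.39 CPM (1.49 ± 0.12, adjusted p = 1.03e-05). The groups were again separate. EPHA10, whose kinase domain is thought to be inactive, rose strongly before recovery, from 3.25, 4.03 and 3.64 CPM to 18.3, 20.2 and 19.9 CPM in WT U2OS cells (2.42 ± 0.11, adjusted p = 3.32e-06; 2.33 without untreated replicate 1). After recovery it was 0.37 ± 0.11 higher in WT and 0.44 ± 0.14 higher in KO cells.

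Several of these receptors are known from neurons, and neuronal marker genes moved with them. All 6 tested genes of a list of 8 neuronal markers rose in each of the 4 treatment comparisons. Of the 2 that were not tested, TUBB3 had almost no counts but a deposited level in TPM, which went from a mean of 5.76 to 3.53 TPM in WT and from 5.24 to 2.85 TPM in KO AID-DIvA cells, and from 6.30 to 6.60 TPM in WT and from 6.42 to 5.003 TPM in KO U2OS cells. The sum of the 8 was at 99.9 to 105 TPM in untreated and 225 to 243 TPM in treated WT U2OS cells. Most of it was NEFL, with means of 75.3 and 149 TPM there. In WT AID-DIvA cells the sum was at 92.5 to 97.02 TPM and 117 to 138 TPM. It was at 110 to 113 and 282 to 301 TPM in KO U2OS cells and at 95.6 to 101 and 151 to 157 TPM in KO AID-DIvA cells. No gene of the list was at 0 throughout a group. The sum of 6 epithelial markers also moved, from 20.3 to 22.4 TPM up to 54.7 to 55.6 TPM in WT and from 16.6 to 18.1 TPM up to 41.1 to 44.6 TPM in KO U2OS cells. In AID-DIvA cells it went from 14.6 to 16.1 TPM up to 19.97 to 25.3 TPM in WT and from 16.04 to 19.5 TPM up to 28.3 to 29.9 TPM in KO cells. The epithelial genes did not move together: 2 rose and 1 fell of 5 tested in WT U2OS cells, and 2 rose of 4 in KO U2OS cells. In AID-DIvA cells 3 rose and 1 fell of 5 in WT, and 2 rose of 4 in KO cells. In WT U2OS cells CLDN4 went from a mean of 9.30 to 40.9 TPM, whereas KRT14 went from 3.94 to 0.486 TPM. The part of either list in the receptor results was not tested.

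EPHB3, an EphB receptor of epithelial stem cells, gave the clearest reversal between the stages. Before recovery it rose, from 15.1, 14.5 and 13.0 CPM to 21.2, 22.3 and 22.2 CPM in WT U2OS cells (0.63 ± 0.08, adjusted p = 0.000554; 0.66 without untreated replicate 1). KO U2OS cells went from 13.3, 13.9 and 11.9 CPM to 27.8, 23.1 and 25.6 CPM (0.97 ± 0.07, adjusted p = 3.97e-11). All treated libraries were above all controls. After recovery WT AID-DIvA cells were at 1.97, 2.18 and 3.17 CPM against 12.3, 11.9 and 11.5 CPM (-2.27 ± 0.13, adjusted p = 1.68e-08). KO AID-DIvA cells were at 2.48, 2.57 and 2.83 CPM against 10.9, 9.71 and 11.5 CPM (-2.02 ± 0.10, adjusted p = 7.45e-07). All recovered libraries lay far below the controls. EPHA3 reversed too. In KO U2OS cells it went from 0.684, 1.10 and 0.775 CPM to 5.72, 5.59 and 5.96 CPM (2.74 ± 0.14, adjusted p = 6.53e-14), and in WT U2OS cells it rose by 1.62 ± 0.30 (1.29 without untreated replicate 1). After recovery it gave -0.95 ± 0.24 in WT and -0.57 ± 0.19 in KO cells (adjusted p = 0.00565 and 0.041), at low levels in both states.

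EPHA4, which binds ephrins of both types, was not called before recovery (-0.17 ± 0.18 in WT and 0.03 ± 0.10 in KO cells), although it fell in WT cells without untreated replicate 1 (-0.35, adjusted p = 0.00403), and it fell after recovery. WT AID-DIvA cells went from 2.88, 2.27 and 2.39 CPM to 1.02, 1.19 and 0.788 CPM (-1.33 ± 0.16, adjusted p = 2.02e-05). KO AID-DIvA cells went from 3.603, 3.33 and 3.19 CPM to 1.51, 1.44 and 1.49 CPM (-1.19 ± 0.11, adjusted p = 2.83e-05). The recovered libraries of both genotypes were below their controls. EPHB6, which lacks kinase activity, rose before recovery (0.72 ± 0.07 in WT, 0.71 without untreated replicate 1, and 0.71 ± 0.05 in KO cells) and fell after it (-0.48 ± 0.06 and -0.63 ± 0.09). EPHA2, the most abundant Eph receptor, gave 0.18 and -0.02 before recovery (adjusted p = 0.0649 and 0.796; 0.20 in WT cells without untreated replicate 1, adjusted p = 1.54e-05) and a rise of 0.19 ± 0.04 in WT and 0.38 ± 0.07 in KO cells after it. For EPHA1 the counts from either strand included antisense reads: the reverse-strand counts came to 0.335 of them, and EPHA1-AS1 and ZYX overlap it on the other strand.

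The reversal between the stages was counted within each genotype, over libraries that the 2 stages do not share. In WT cells, 28 members rose before recovery and were also tested after it. Of these 9 also rose after recovery, 11 fell and 8 were not called. The 11 were EFNA2, EPHA3, EPHA5, EPHB3, EPHB6, PLXNA3, SEMA3C, SEMA3F, SEMA4B, SEMA4D and SEMA6D. In KO cells 9 of 28 rose again, 8 fell and 11 were not called. The 8 were EPHA3, EPHA6, EPHB3, EPHB6, SEMA3A, SEMA3C, SEMA3F and SEMA6D. Among all genes that rose before recovery, 16.7% fell after it in WT and 14.8% in KO cells, while for the members it was 39.3% and 28.6%. The share that rose at both stages was 32.1% for the members in each genotype, against 40.4% of all risers in WT and 33.1% in KO cells. Under the labelled treatment, which exchanges the AID-DIvA groups, the shares of risers that fell and that rose trade places for members and all genes alike. Of the members, 32.1% would then have fallen in each genotype, against 40.4% and 33.1% of all risers, and 39.3% in WT and 28.6% in KO cells would have risen at both stages.

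**Figure D4:**
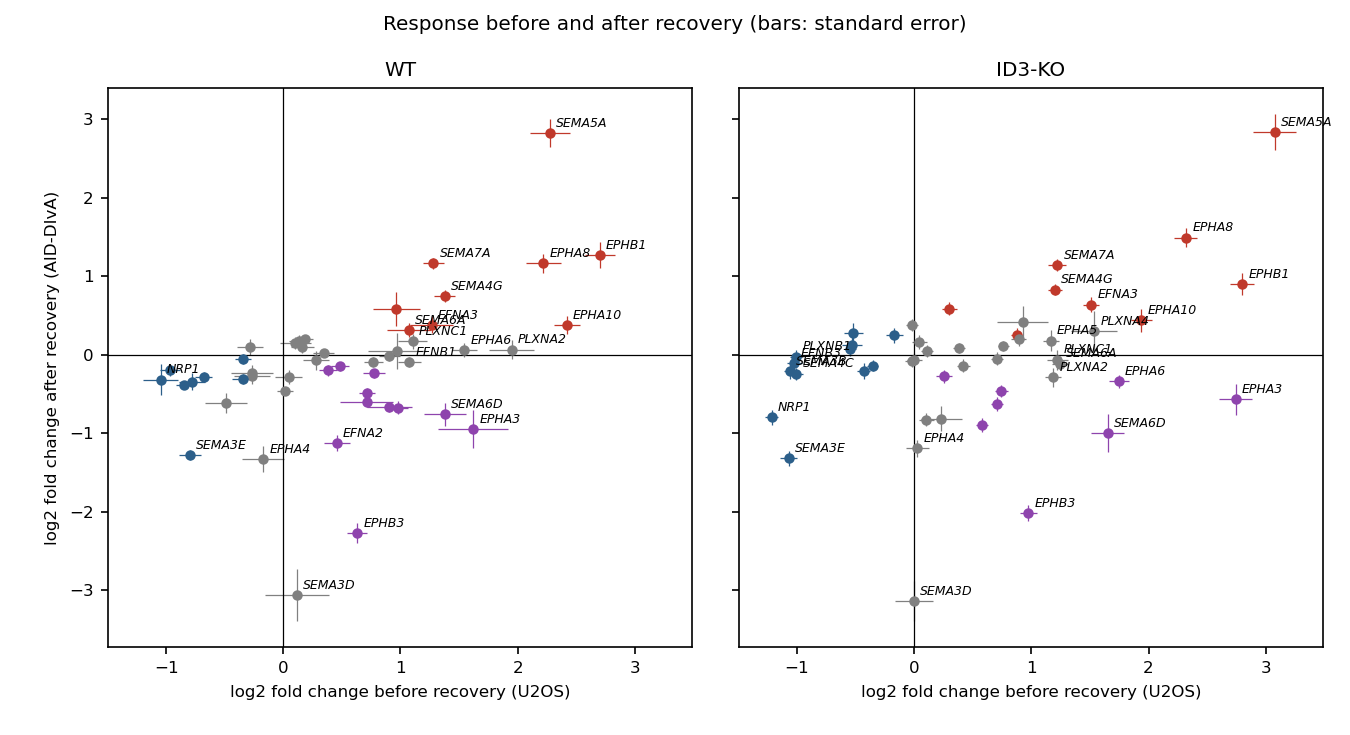
Log2 fold change before recovery in U2OS cells (x axis) against that after recovery in AID-DIvA cells (y axis) for the members tested at both stages, WT left and ID3-KO right, with standard errors. Red members rose at both stages, purple members rose before and fell after recovery, blue members fell before recovery and grey members are the rest. SEMA5A lies at the upper right of both panels (2.28 and 2.82 in WT cells), and EPHB3 lies at the lower right (0.63 and -2.27 in WT cells).

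The difference between the stages was also tested as such, as the response in AID-DIvA cells minus that in U2OS cells in a fit of all 24 libraries. In WT cells the response was higher after recovery for 7 and lower for 30 of 52 members, where 22.6% and 22.8% of 23087 genes were called (45.4% in either direction). In KO cells it was higher for 9 and lower for 29 of 52, against 21.7% and 24.3% of all genes (46% in either direction). Beyond 1 on the log2 scale, 17 members were called in each genotype, against 15.8% of all genes in WT and 16.6% in KO cells. EPHB3 had the smallest adjusted p in both, with -2.90 ± 0.16 in WT (-2.93 without untreated replicate 1) and -2.99 ± 0.16 in KO cells (adjusted p = 1.23e-13 and 7.04e-14). EPHA6, an EphA receptor that rose before recovery by 1.55 in WT (1.51 without it) and 1.75 in KO cells, gave -1.49 ± 0.13 (-1.44 without that replicate) and -2.08 ± 0.13. SEMA3F gave -1.65 ± 0.11 (-1.72 without it) and -1.20 ± 0.11, and EPHB6 gave -1.20 ± 0.10 (-1.18 without it) and -1.33 ± 0.10. PLXNB1 went the other way, with 0.77 ± 0.12 (0.83 without it) and 0.99 ± 0.12. For SEMA5A and SEMA7A the difference was not called in either genotype.

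A further question was whether untreated KO cells differed from untreated WT cells. In AID-DIvA cells 12 of 49 members were higher and 13 lower in KO cells, against 18.6% and 18.1% of 20441 genes (36.7% in either direction). In U2OS cells 7 of 50 were higher and 7 lower, against 6.56% and 8.63% of 20621 genes (15.2% in either direction). Without untreated WT U2OS replicate 1, 32 members were called in U2OS cells in place of 14, and 41.1% of all genes in place of 15.2%. Beyond 1 on the log2 scale, 1 member was called in AID-DIvA and 5 in U2OS cells, against 4.58% and 4.26% of all genes. Of the members tested in both lines, 6 were higher in KO cells in both, EFNA2, EFNA5, EPHA2, EPHA10, SEMA3F and SEMA3G. Another 5 were lower in both, EFNB3, NRP2, PLXNA4, SEMA4C and SEMA5A. These are 50% of the members higher and 38.5% of those lower in AID-DIvA cells, against 32.1% and 36.2% over all genes. SEMA7A was called in opposite directions (0.21 ± 0.06 in AID-DIvA and -0.31 ± 0.08 in U2OS cells, -0.24 without WT replicate 1). How many independent KO lines the libraries came from is not given in the sources used here, so an effect of ID3 and a difference between lines cannot be told apart.

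EPHA2 had the smallest adjusted p in AID-DIvA cells. It was at 126, 119 and 133 CPM in KO and 73.9, 72.5 and 73.3 CPM in WT AID-DIvA cells (0.79 ± 0.05, adjusted p = 4.18e-09). In U2OS cells it was at 148, 144 and 141 CPM in KO and 88.5, 86.0 and 82.6 CPM in WT cells (0.75 ± 0.07, adjusted p = 0.000455; 0.77 without WT replicate 1). All KO libraries were above all WT libraries in both lines, and this held for the treated libraries too. SEMA3G, a secreted semaphorin of blood vessels, was higher in KO U2OS cells at 10.8, 9.91 and 9.63 CPM against 3.98, 4.59 and 4.29 CPM (1.24 ± 0.10, adjusted p = 0.000315; 1.18 without WT replicate 1), and by 0.69 ± 0.11 in KO AID-DIvA cells. SEMA3F was at 29.2, 27.9 and 31.1 CPM in KO and 19.1, 18.5 and 17.8 CPM in WT AID-DIvA cells (0.67 ± 0.06, adjusted p = 1.75e-07), and 0.47 ± 0.09 higher in KO U2OS cells (0.54 without WT replicate 1). The KO libraries were the higher ones for both genes in both lines. EFNA2 was at 22.5, 22.2 and 25.2 CPM in KO and 14.0, 14.9 and 13.5 CPM in WT AID-DIvA cells (0.73 ± 0.07, adjusted p = 3.11e-07).

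On the lower side, NRP2, the neuropilin used by SEMA3F, was at 0.925, 1.151 and 1.11 CPM in KO and 2.25, 2.14 and 2.51 CPM in WT U2OS cells (-1.11 ± 0.16, adjusted p = 0.00359; -1.12 without WT replicate 1), and -0.64 ± 0.12 in AID-DIvA cells. SEMA4C was at 79.7, 73.0 and 75.6 CPM in KO and 111, 108 and 106 CPM in WT U2OS cells (-0.51 ± 0.07, adjusted p = 0.0031; -0.49 without WT replicate 1). KO and WT libraries did not overlap for either gene. SEMA5A was lower in KO cells of both lines, by 1.52 ± 0.23 in AID-DIvA and 1.04 ± 0.25 in U2OS cells (1.09 without WT replicate 1) on the log2 scale. EPHB2, an abundant EphB receptor, was lower in KO AID-DIvA cells, at 65.8, 65.1 and 67.0 CPM against 99.7, 96.1 and 92.98 CPM (-0.54 ± 0.04, adjusted p = 1.1e-07), and was not called in U2OS cells (-0.07 ± 0.07, adjusted p = 0.505), where it was lower without WT replicate 1 (-0.09, adjusted p = 0.0427). The KO and WT groups were separate in AID-DIvA cells.

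**Figure D5:**
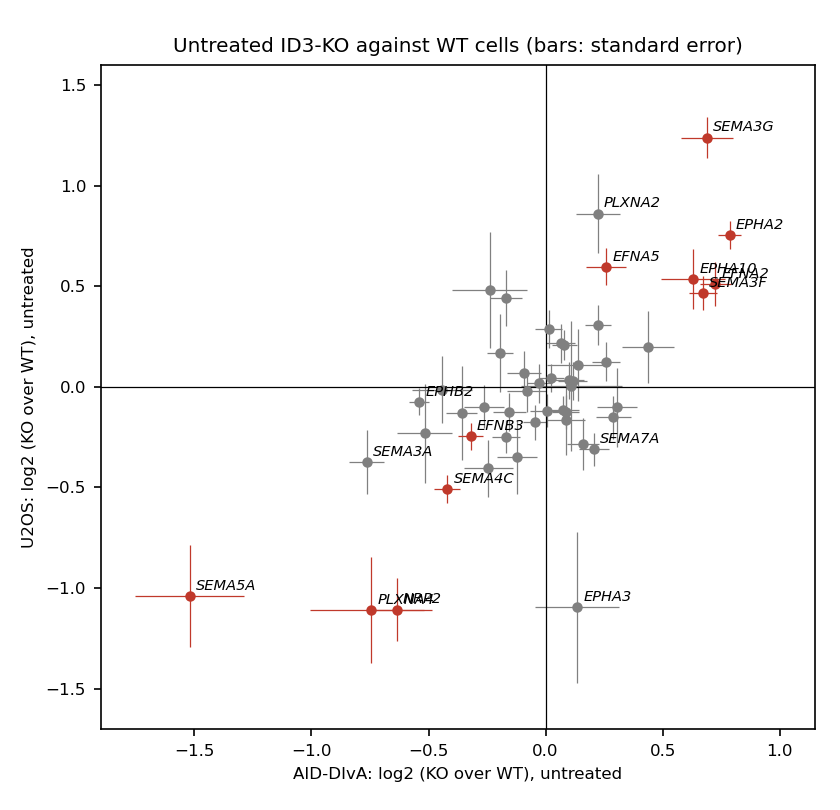
Log2 difference of untreated ID3-KO against WT cells in AID-DIvA (x axis) and U2OS (y axis) for the members tested in both lines, with standard errors. Red members were called in the same direction in both lines and grey members were not. EPHA2 (0.79 and 0.75) and SEMA3G (0.69 and 1.24) lie at the upper right, and SEMA5A (-1.52 and -1.04), PLXNA4 and NRP2 at the lower left.

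Whether the treatment response itself differed between genotypes was tested as an interaction. After recovery 2 of 50 members were called, both with a higher response in KO cells, against 0.762% higher and 0.451% lower of 21265 genes (1.21% in either direction). EPHA5, an EphA receptor of the nervous system, fell in WT AID-DIvA cells from 10.4, 10.9 and 10.05 CPM to 6.72, 6.81 and 7.04 CPM, and in KO cells was at 8.196, 8.24 and 7.92 CPM untreated and 7.08, 9.41 and 10.9 CPM recovered. The WT groups were separate and the KO groups overlapped, with an interaction of 0.79 ± 0.16 (log2, adjusted p = 0.0187). EPHB2 fell in WT cells to 66.4, 70.7 and 71.9 CPM and in KO cells was at 68.1, 61.1 and 57.4 CPM, close to its already lower control (0.38 ± 0.09, adjusted p = 0.0433). Both calls were lost when single libraries were left out. Before recovery 1 of 51 members was called, against 1.1% higher and 1.06% lower of 22647 genes (2.15% in either direction). SEMA3G went from 3.98, 4.59 and 4.29 CPM to 5.12, 4.88 and 5.52 CPM in WT U2OS cells. In KO U2OS cells it went from 10.8, 9.91 and 9.63 CPM to 7.57, 6.43 and 7.08 CPM. The fall in KO cells was called and the change in WT cells was not, and the levels of the genotypes came closer together. The interaction was -0.80 ± 0.13 (adjusted p = 0.00586), and -0.74 without untreated WT replicate 1. Without that replicate 12 members were called, 5 higher and 7 lower, together with 9.03% of all genes. EPHA3 at 1.45 and SEMA3G at -0.74 were the furthest from 0 of these in each direction. With all libraries, the 3 called values were below 1 on the log2 scale, a size that 0.31% of all genes exceeded in AID-DIvA and 0.68% in U2OS cells.

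The proteins that pass on these signals were followed in lists made by hand, with earlier results of these data known. Of 29 partners of semaphorins and plexins (co-receptors, MICAL and CRMP proteins, GTPase regulators), 27 were tested in each treatment comparison. Before recovery WT cells had 14 risers and 2 fallers and KO cells 16 and 5, and after recovery 7 rose and 11 fell in WT and 8 rose and 9 fell in KO cells. Over all genes, 26% rose and 22.9% fell in WT and 35.8% and 34% in KO cells before recovery. The shares after recovery were 23.9% and 23% in WT and 20.2% and 19.9% in KO cells. The median partner was at 0.34 and 0.25 before and at -0.14 and 0.02 after recovery on the log2 scale (WT first). KDR, the main VEGF receptor and a partner of NRP1, rose before recovery by 4.34 ± 0.20 in WT and 5.996 ± 0.20 in KO cells. Its untreated means were 0.123 TPM in WT and 0.0443 TPM in KO cells, and it entered these tests only through its treated libraries. KDR is also 1 of the 5 endothelial markers measured, which summed to 2.32 to 3.40 TPM in untreated and 6.95 to 7.19 TPM in treated WT U2OS cells, and their part in the result was not tested. L1CAM, an adhesion molecule that forms a complex with NRP1, rose by 1.72 ± 0.05 before and 1.51 ± 0.10 after recovery in KO cells. NRCAM, its relative, fell after recovery (-1.150 ± 0.11 in WT and -0.93 ± 0.13 in KO cells). Of 21 partners of ephrins and Eph receptors, 5 rose and 6 fell of 19 tested in WT and 7 rose and 8 fell of 18 in KO U2OS cells. After recovery 6 rose and 7 fell of 19 in WT and 5 rose and 9 fell of 18 in KO AID-DIvA cells. Of the tested partners, 57.9% were called in WT and 83.3% in KO U2OS cells, against 48.9% and 69.9% of all genes. In AID-DIvA cells it was 68.4% in WT and 77.8% in KO cells, against 46.9% and 40.1%. TIAM1, an activator of Rac downstream of ephrins, rose before recovery by 2.36 ± 0.16 in WT and 2.10 ± 0.04 in KO cells. GRIP1, a scaffold of ephrin-B ligands, fell in all 4 comparisons (-1.45, -1.31, -0.90 and -0.81, WT before KO and U2OS before AID-DIvA).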

How the data were processed

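RNA was sequenced from 24 cultures with a stranded total RNA kit. The authors aligned the reads with STAR to hg19 (GRCh37) and counted them per gene with featureCounts, and the deposited tables hold counts from either strand, counts per strand and TPM values. The deposited counts from either strand were analysed as they stood. The TPM values deposited by the authors served to compare levels between genes and to describe marker genes by group, without a test on TPM. CPM was computed from the counts with TMM factors over the 12 libraries of each cell line, so CPM is not compared between cell lines.

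Differences were tested with edgeR 4.0.16 in R 4.3.3 (filterByExpr, TMM, robust quasi-likelihood fit) over all genes that passed the filter, with Benjamini-Hochberg adjustment and calls at an adjusted p below 0.05. Treatment and genotype comparisons used the 2 groups compared, interactions the 4 groups of a cell line, and stage differences all 24 libraries. The scripts were tested on simulated counts with known changes. Alternatives were DESeq2 1.42.0, other size factors, other filters, reverse-strand counts, 1 fit for all groups of a line, a replicate block and the omission of each library.

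Per-library values are given for the 4 members with the largest rise and the 4 with the largest fall among called members of at least 1 CPM in each treatment comparison, and for the 4 with the smallest adjusted p in the genotype and interaction comparisons. Other members are described by the roles they have in the family. From the partner lists, at most 4 of the largest called changes were open to naming. The family was picked and the lists were chosen with earlier results of these data known, and the members were then taken by name alone. The 3 replicates of a group are biological replicates in the study's methods, and the p-values measure the spread between these cultures. Promoter windows came from RefSeq and were matched letter for letter to GRCh37.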

Additional observations from a re-analysis of the deposited data

Results flagged for a closer look

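For 3 members the response to mocetinostat differed between KO and WT cells by a test of the interaction itself. After recovery the log2 response of EPHA5 was 0.79 higher in KO than in WT AID-DIvA cells (edgeR, adjusted p = 0.0187), a call lost in 4 of 18 alternatives. The response of EPHB2 was 0.38 higher in KO cells (edgeR, adjusted p = 0.0433), a call lost in 12 of 18 alternatives, among them the replicate block and DESeq2 size factors. Before recovery the response of SEMA3G was -0.80 in KO relative to WT U2OS cells (edgeR, adjusted p = 0.00586), and -0.74 without untreated WT replicate 1.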

How the results depend on the processing

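The alternatives were followed for 51 values, the largest changes or smallest adjusted p of each comparison, a choice that favours values that hold. SEMA3D and weaker calls given above were not among them. Of the 51 values, 49 kept their direction and stayed past the threshold in every alternative run. The exceptions were the interactions of EPHA5, lost in 4 of 18 alternatives, and EPHB2, lost in 12 of 18, with adjusted p up to 0.0672 and 0.147. A log2 fold change beyond 1 left 7 members called in KO and 9 in WT AID-DIvA cells, 22 in KO and 16 in WT U2OS cells, 1 and 5 between untreated genotypes (AID-DIvA, then U2OS), 0 and 0 in the interactions, and 17 in each stage difference. The U2OS genotype comparison gave 9 members with the replicate block and 22 with all 4 groups in one fit, against 14. The AID-DIvA interaction gave 1 with DESeq2 size factors and 1 with the replicate block, against 2, and the U2OS interaction gave 4 with DESeq2 and 4 without a filter, against 1. The cause was not tested.

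Leaving out 1 library gave 19 to 30 members in KO and 26 to 37 in WT AID-DIvA cells, 40 to 42 in KO and 33 to 45 in WT U2OS cells, 19 to 27 and 5 to 32 between untreated genotypes, 0 to 3 and 1 to 12 in the interactions, and 33 to 36 (WT) and 37 to 39 (KO) in the stage differences. The 32 and the 12 came without untreated WT U2OS replicate 1, and the 5 without untreated KO U2OS replicate 1. Replicate numbers did not pair the samples, since same-numbered libraries did not deviate together in every pair. Few reads limit SEMA3D, SEMA4A, SEMA5B, EFNB2 and EPHA7. They also limit the size of the SEMA5A changes, whose untreated KO libraries held 12, 32 and 20 counts in AID-DIvA and 15, 18 and 18 in U2OS cells.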

Other observations

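Other guidance cues were measured in the same libraries. Of 21 netrin, slit and related ligands and receptors, 15 rose and 4 fell of 21 tested in WT U2OS cells before recovery, and 14 rose and 2 fell of 20 in KO U2OS cells. After recovery 6 rose and 5 fell of 18 in WT and 6 rose and 3 fell of 19 in KO AID-DIvA cells. Over all genes, 26% rose and 22.9% fell in WT and 35.8% and 34% in KO U2OS cells. The shares in AID-DIvA cells were 23.9% and 23% in WT and 20.2% and 19.9% in KO cells. Only 18 of the 21 were tested between untreated KO and WT U2OS cells. Some of the list thus entered the WT test before recovery only through treated libraries, and such changes rest on few untreated reads. Whether the genes named next are among these is not shown here. The netrin receptor DCC rose before recovery by 4.05 ± 0.39 in WT and 3.63 ± 0.19 in KO cells (log2, SE). The netrin receptors UNC5A and UNC5D rose by 3.45 ± 0.19 and 3.11 ± 0.25 in WT cells. After recovery ROBO4, a receptor of endothelial cells, rose by 2.97 ± 0.24 in WT and 3.24 ± 0.24 in KO cells. SLIT3, a slit ligand, rose by 1.91 ± 0.10 and 1.58 ± 0.10.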
